A study of Mus musculus with 48 samples.

Results

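The genes described here are 10 chaperones and folding factors of the endoplasmic reticulum (ER), out of 18193 genes that carried a symbol of their own on the array. They were chosen by name: Hspa5, Hsp90b1, Hyou1, Dnajb9, Sdf2l1, Pdia4, Ero1b, Derl3, Creld2 and Manf. These genes and the lists further on were chosen with earlier results of these data known. Their counts are set against the shares of all probe sets as a description, not as a test of the group. A probe set is a group of short probes against one transcript, and its level is given on the log2 scale, where 1 unit is a 2-fold difference. Every probe set that carried only one of these symbols was taken, which gave 18 probe sets, and the one with the highest mean level stands for a gene where a single value is given. The livers came from obese, glucose-intolerant male C57BL/6J mice, and the RNA of each mouse was measured on 1 Affymetrix expression array. All mice had first eaten a high-fat diet with a low ratio of protein to carbohydrate (L-P/C-HF) for 10 weeks, were chosen for poor glucose tolerance and were then randomized, either to a high-fat diet with a high ratio of protein to carbohydrate (H-P/C-HF) or to more of the same diet. The 4 groups were H-P/C-HF for 2 days (2-d, 11 arrays used), L-P/C-HF for 2 days (12 arrays), H-P/C-HF for 4 weeks (4-wk, 12 arrays) and L-P/C-HF for 4 weeks (12 arrays), so that the control mice were obese and on a high-fat diet as well, and 4-wk mice were older and were killed on other days than 2-d mice. The sample labels write HPHC and HFHC, and HPHC, the one with a P for protein, was read as H-P/C-HF.

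Proteins that enter the secretory pathway are folded in the ER, where chaperones hold the unfolded chain, oxidoreductases form its disulfide bonds and a quality control step sends misfolded chains to the cytosol for degradation. When unfolded chains accumulate, the sensors ATF6, IRE1 and PERK raise the transcription of the folding machinery, the unfolded protein response. Liver cells secrete most plasma proteins and are therefore rich in ER and its chaperones. Many promoters of this machinery hold the ER stress response element (ERSE), in which CCAAT binds NF-Y and CCACG, set apart by a fixed spacer, binds ATF6 or XBP1.

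Promoter windows of RefSeq on GRCm38.p6, with 250 bases before and 50 after each gene start, were matched for 8 of the 10 genes, those other than Hyou1 and Manf. An exact ERSE (CCAAT, any 9 bases, then CCACG, on either strand) was found in the windows of 5 of these 8 genes, against 39 of all 32851 windows (0.119%). Counted by gene, 37 of 27025 genes with a window held one. The other ER lists described further on were counted by gene as well, over the genes with a window. It was in 2 of 8 lectin chaperones (Calr and Canx), 1 of 15 genes of degradation (Syvn1) and 1 of 13 oxidoreductases (Pdia6). It was also in 1 of 13 other co-chaperones (Dnajc3), and in none of the 16 sensors and factors or the 20 genes of translocation. The element is shown because it is the known element of this response. It was found in Ero1b, which passed for diet, and in Hspa5, Hsp90b1, Derl3 and Creld2, which did not. The stretches are printed 5′ to 3′ in the direction of the motif, with 12 bases on either side and with the CCAAT and CCACG parts in capitals.
Hspa5, chr2:34772013-34772055, strand of the gene: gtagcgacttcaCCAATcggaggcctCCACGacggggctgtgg
Hsp90b1, chr10:86705626-86705668, strand of the gene: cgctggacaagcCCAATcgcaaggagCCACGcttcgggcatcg
Hsp90b1, chr10:86705521-86705563, opposite strand: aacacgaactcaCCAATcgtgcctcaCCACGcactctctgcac
Ero1b, chr13:12565670-12565712, opposite strand: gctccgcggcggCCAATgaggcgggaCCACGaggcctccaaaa
Derl3, chr10:75893230-75893272, opposite strand: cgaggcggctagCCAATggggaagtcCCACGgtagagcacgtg
Creld2, chr15:88819508-88819550, opposite strand: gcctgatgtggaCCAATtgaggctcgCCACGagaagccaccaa

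The element lay 65 to 47 bases before the start of Hspa5, 126 to 108 before that of Creld2, 156 to 138 before that of Derl3 and 201 to 183 before that of Ero1b. Hsp90b1 held 2 of them, at 212 to 194 and at 107 to 89 bases before its start. No exact match was in the windows of Dnajb9, Sdf2l1 and Pdia4. The CCACG part alone was in all 8 windows and in 32.8% of all windows, while ERSE-II (ATTGG, any base, then CCACG, in 0.0365% of all windows) and the UPRE (TGACGTGG, in 0.676%) had no exact match in the 8. CCACG is also part of the ERSE and of ERSE-II, so these counts overlap. Such matches are letters in a window and were not tested as binding sites.

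Markers of the labelled tissue were high in every sample. The mean level of 10 hepatocyte markers such as Ahsg and Cps1 lay between 13.10 and 13.55 on the log2 scale in the 47 arrays used, and array medians lay between 6.73 and 6.91. Array B25, from the H-P/C-HF 2-d group, was left out, as in the methods of the study. Besides B25, the arrays with the lowest median correlation to the others were A09 (0.978), A01 (0.979) and A24 (0.980), all of L-P/C-HF mice, and the averaged diet effect on the brightest probe set of each gene is given with and without these 3. A09 was the highest of its 12 L-P/C-HF 2-d arrays for 10 of the 10 genes, and A24 was the lowest of its 12 L-P/C-HF 4-wk arrays for 7. In the H-P/C-HF 2-d group B28 was the highest for 8 genes and B34 the lowest for 7.

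Ero1b was the only one of the 10 genes that passed the test for diet, at an adjusted p under 0.05 over all probe sets. It encodes an ER oxidase that passes electrons from protein disulfide isomerases to oxygen and so keeps disulfide bond formation running. On probe set 1434714_at the lowest, median and highest levels were 9.90, 10.26 and 10.82 in H-P/C-HF 2-d mice, against 10.28, 10.62 and 11.32 in L-P/C-HF 2-d mice. At 4-wk they were 9.92, 10.18 and 10.78 in H-P/C-HF mice, against 10.09, 10.59 and 10.97 in L-P/C-HF mice. The ranges overlapped at both durations, but 10 of 11 mice on H-P/C-HF at 2-d and 10 of 12 at 4-wk had a level below the median of the L-P/C-HF mice.

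Averaged over both durations, Ero1b fell by 0.38 on the log2 scale in H-P/C-HF mice (SE 0.0717, 95% confidence interval -0.53 to -0.24), a fold of 0.767, with an adjusted p of 0.0117 in limma over all probe sets. The other bright probe set, 1425705_a_at, fell by 0.38 as well (SE 0.0702, interval -0.52 to -0.24, adjusted p = 0.0115). There the lowest, median and highest levels were 8.26, 8.58 and 8.89 in H-P/C-HF 2-d mice, against 8.53, 9.0 and 9.63 in L-P/C-HF 2-d mice. At 4-wk they were 8.47, 8.76 and 9.53 in H-P/C-HF mice, against 8.93, 9.22 and 9.55 in L-P/C-HF mice. On this probe set 11 of 11 mice on H-P/C-HF at 2-d and 11 of 12 at 4-wk had a level under the L-P/C-HF median, and the single exception at 4-wk was B47, the highest H-P/C-HF mouse.

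These were the only member probe sets that passed in this comparison, 2 of 18, where 0.0222% of all 45037 probe sets passed with a lower level and 0.0511% in either direction. By unadjusted p they stood 6th and 9th of all probe sets. Both passed in each of the 47 fits that left out 1 array, with adjusted p between 0.00328 and 0.0262 for 1434714_at and between 0.00122 and 0.0246 for 1425705_a_at. Without A01, A09 and A24 the changes were -0.36 (adjusted p = 0.00769) and -0.39 (adjusted p = 0.00274). The study's own lists of regulated transcripts, drawn from these mice, hold Ero1b, Derl3, Creld2, Manf and Sdf2l1, so the direction of these genes is not independent evidence here. Those lists were made within single durations, by ANOVA with Global Error Assessment and another p threshold. They are therefore not like for like with the calls here.

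The third Ero1b probe set, 1449948_at, had a change of -0.01 (interval -0.11 to 0.09). Its mean level of 6.75 was close to that of the median probe set, 6.79, and across mice it correlated at r = -0.23 with 1434714_at, where 1425705_a_at correlated at 0.52 (47 arrays, group means subtracted). The dim probe set therefore did not follow the bright ones, and which transcript each of them reads was not examined here.

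**Figure D1:**
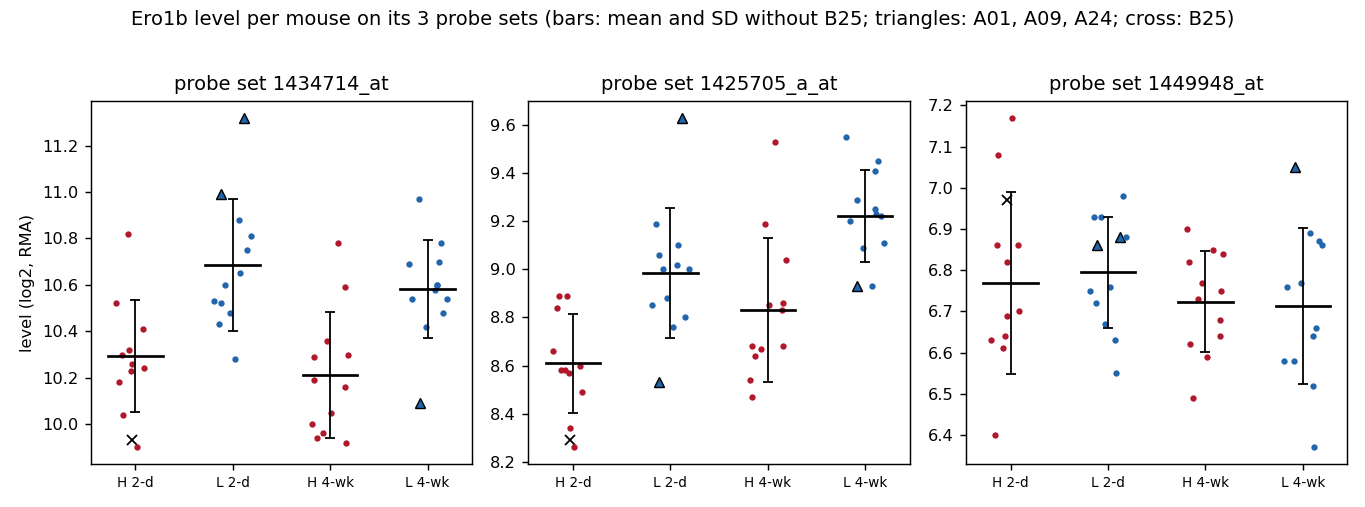
Level of Ero1b in each mouse (log2, RMA) on its 3 probe sets, for H-P/C-HF (H, red) and L-P/C-HF (L, blue) at 2-d and 4-wk, with bars for the mean and SD of the arrays used, triangles for A01, A09 and A24, and a cross for B25. On 1434714_at the group means were 10.29 (H) and 10.69 (L) at 2-d and 10.21 (H) and 10.58 (L) at 4-wk, while on 1449948_at all 4 means lay between 6.71 and 6.80.

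Within a single duration the change of Ero1b was of the same size and did not pass. At 2-d it was -0.39 on 1434714_at (unadjusted p = 0.000346, adjusted p = 0.399 in limma), with means of 10.29 ± 0.24 in H-P/C-HF mice (SD, 11 arrays) and 10.69 ± 0.28 in L-P/C-HF mice (SD, 12 arrays). At 4-wk it was -0.37 (unadjusted p = 0.000541, adjusted p = 0.999), with means of 10.21 ± 0.27 in the H-P/C-HF group, against 10.58 ± 0.21 in the L-P/C-HF group (SD, 12 arrays each). The difference between these effects, 4-wk minus 2-d, was 0.02 with an interval of -0.27 to 0.31, and -0.12 without A01, A09 and A24.

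None of the 18 member probe sets passed at 2-d, where 0.0133% of all probe sets did, or at 4-wk, where 0% did. At an unadjusted p under 0.05, 4 of the 18 were lower at 2-d, against 1.62% of all probe sets, and 4 were lower at 4-wk, against 1.8%. Averaged over durations, 6 of the 18 were lower at that threshold, against 2.57% of all probe sets, and none was higher. Without A01, A09 and A24 the counts of lower member probe sets were 2 at 2-d, 8 at 4-wk and 9 in the average. The shares of all probe sets given here belong to the fit with all used arrays. They were not counted without these 3 arrays, so the last counts have no share to be read against. Ordinary one-way ANOVA with Benjamini-Hochberg adjustment likewise passed 0 member probe sets at 2-d, 0 at 4-wk and 2 in the average.

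The sign of the change was shared more widely than the calls. Of the 18 probe sets, 17 had a negative change at 2-d, 17 at 4-wk and 18 in the average, where 46.6%, 56.9% and 52.2% of all probe sets were negative. The median change over the 18 was -0.19 at 2-d, -0.14 at 4-wk and -0.18 in the average, against 0.01, -0.01 and -0.00 over all probe sets. Leaving out A01, A09 and A24 left 14 negative at 2-d (median -0.10), 17 at 4-wk (median -0.20) and 17 in the average (median -0.15). Most members moved together across mice on their brightest probe sets, as described further on, so their signs are not separate observations.

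**Figure D2:**
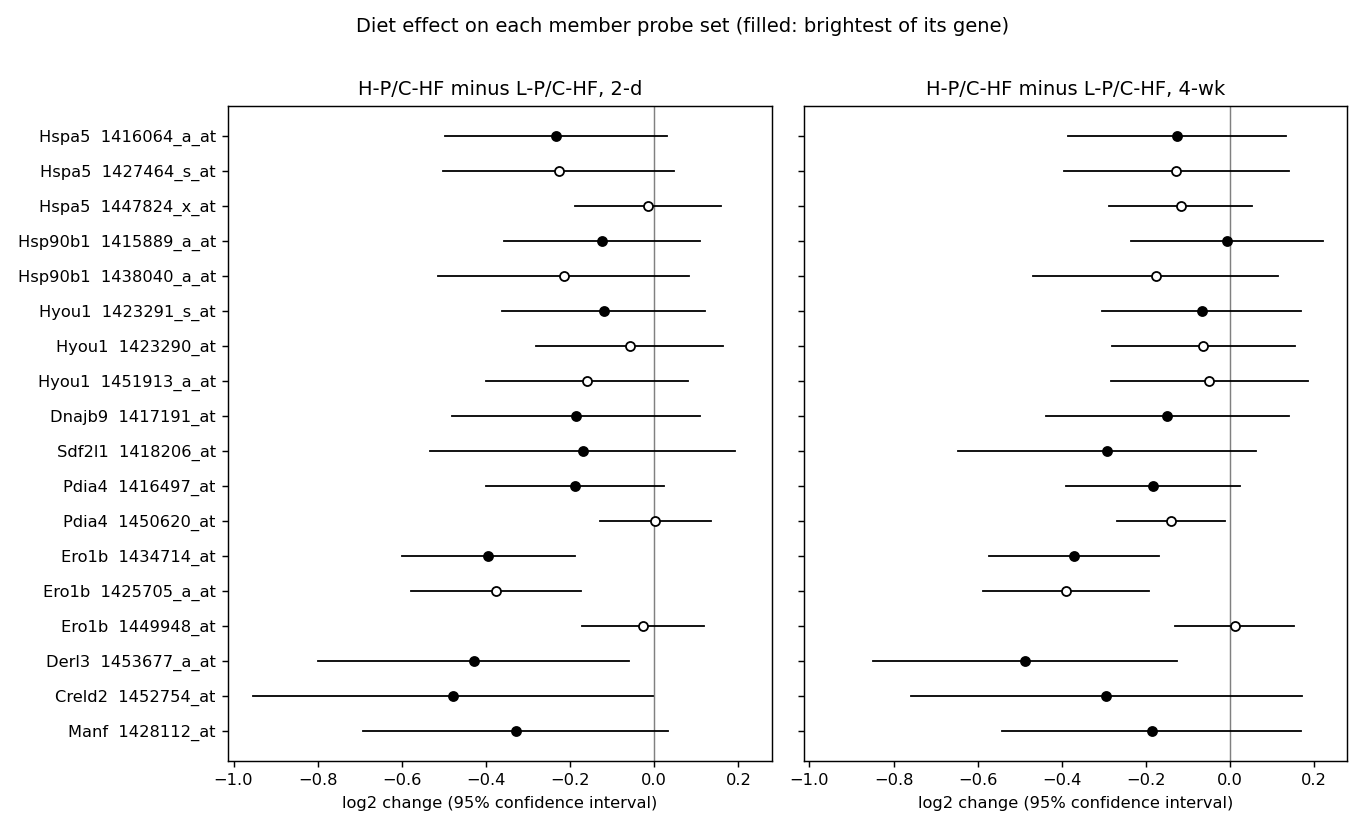
Change in each member probe set (L-P/C-HF subtracted from H-P/C-HF, log2) with its 95% confidence interval, at 2-d on the left and at 4-wk on the right, with the brightest probe set of each gene filled. At both durations 17 of 18 points lie below 0. The intervals of Derl3 and of 1434714_at and 1425705_a_at of Ero1b lie wholly below 0 at both durations. That of Creld2 does so at 2-d, and that of 1450620_at of Pdia4 at 4-wk.

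Among the general chaperones, Hspa5 (BiP) binds unfolded chains and holds the stress sensors inactive. Its lowest, median and highest levels were 11.56, 11.85 and 12.34 in H-P/C-HF 2-d mice, against 11.55, 12.06 and 13.32 in L-P/C-HF 2-d mice. At 4-wk they were 11.56, 11.90 and 12.27 in H-P/C-HF mice, against 11.16, 12.04 and 12.63 in L-P/C-HF mice. The groups overlapped throughout, although 10 of 11 mice on H-P/C-HF had a level under the L-P/C-HF median at 2-d, and 7 of 12 did at 4-wk.

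The averaged change of Hspa5 was -0.18 (interval -0.36 to 0.01, unadjusted p = 0.0569), or -0.15 without A01, A09 and A24, and it did not pass. At 2-d it was -0.23 with all used arrays and -0.10 without A01, A09 and A24, which removes A09 with its level of 13.32, while at 4-wk it was -0.13 and -0.20. Probe set 1427464_s_at of the same gene followed the bright one across mice (r = 0.96) and had an averaged change of -0.18. The third, 1447824_x_at, did not follow it (r = 0.08) and had -0.07.

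Hsp90b1 (GRP94), the ER member of the HSP90 family, and Hyou1 (GRP170), a nucleotide exchange factor for BiP, had the smallest estimates of the 10 genes. Hsp90b1 averaged 11.99 ± 0.20 in H-P/C-HF 2-d mice and 12.12 ± 0.35 in L-P/C-HF 2-d mice, and 11.91 ± 0.29 in H-P/C-HF 4-wk mice and 11.91 ± 0.30 in L-P/C-HF 4-wk mice. Its averaged change was -0.07 (interval -0.23 to 0.10) on the brightest probe set, or -0.06 without A01, A09 and A24, and -0.20 (interval -0.40 to 0.01) on 1438040_a_at. Hyou1 averaged 10.96 ± 0.21 in H-P/C-HF 2-d mice and 11.08 ± 0.41 in L-P/C-HF 2-d mice, and 10.86 ± 0.29 in H-P/C-HF 4-wk mice and 10.93 ± 0.26 in L-P/C-HF 4-wk mice, a change of -0.09 (interval -0.26 to 0.08) that was -0.05 without those arrays. At 2-d alone the change of Hyou1 was -0.12 and came to 0.002 without them.

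Dnajb9 (ERdj4) and Sdf2l1 assist BiP, the first as a J-domain co-chaperone that is a target of XBP1. Dnajb9 ranged from 10.12 to 11.07 with a median of 10.68 in H-P/C-HF 2-d mice, against 9.95 to 11.90 with a median of 10.84 in L-P/C-HF 2-d mice. At 4-wk it ranged from 10.60 to 11.23 with a median of 10.84 in H-P/C-HF mice, against 10.51 to 11.58 with a median of 10.98 in L-P/C-HF mice. Its averaged change was -0.17 (interval -0.37 to 0.04, unadjusted p = 0.11), nearly as large without A01, A09 and A24 (-0.16).

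The estimate of Sdf2l1 at 2-d rested largely on array A09, with its level of 11.12. Its levels ranged from 8.48 to 9.36 with a median of 8.92 in H-P/C-HF 2-d mice, against 8.47 to 11.12 with a median of 8.80 in L-P/C-HF 2-d mice, where the next highest was 9.26. The change at 2-d was -0.17 and was 0.01 without A01, A09 and A24. Of these, A01 had a level of 8.78, near its group median, and A24 is a 4-wk array. At 4-wk the levels ranged from 8.11 to 9.28 with a median of 8.52 in H-P/C-HF mice, against 8.51 to 9.43 with a median of 8.92 in L-P/C-HF mice, a change of -0.29 (unadjusted p = 0.102) that was -0.32 without those arrays. The averaged change was -0.23, or -0.15 without them, and it did not pass.

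Pdia4 (ERp72) is a protein disulfide isomerase. Its levels ranged from 8.96 to 9.52 with a median of 9.25 in H-P/C-HF 2-d mice, against 9.14 to 10.63 with a median of 9.39 in L-P/C-HF 2-d mice. At 4-wk they ranged from 9.02 to 9.85 with a median of 9.38 in H-P/C-HF mice, against 9.20 to 9.85 with a median of 9.59 in L-P/C-HF mice. Its averaged change was -0.19 (interval -0.33 to -0.04, unadjusted p = 0.0149, adjusted p = 0.957), and -0.14 without the 3 arrays. A second probe set, 1450620_at, was dim at a mean of 5.93 and had -0.07.

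Derl3, a Derlin of the channel through which misfolded proteins leave the ER, had the most negative averaged estimate of the 10 genes with all used arrays. Its lowest, median and highest levels were 8.20, 8.76 and 9.40 in H-P/C-HF 2-d mice, against 8.59, 9.05 and 10.89 in L-P/C-HF 2-d mice. At 4-wk they were 8.04, 8.54 and 9.16 in H-P/C-HF mice, against 8.50, 9.21 and 9.56 in L-P/C-HF mice. All 12 mice on H-P/C-HF at 4-wk had a level below the L-P/C-HF median, and 7 of 12 L-P/C-HF mice lay above every H-P/C-HF mouse.

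Its averaged change was -0.46 (SE 0.129, interval -0.72 to -0.20, unadjusted p = 0.000827, adjusted p = 0.365), and it did not pass. Without A01, A09 and A24 the averaged change was -0.36, the same as that of Ero1b. The change was -0.43 at 2-d and -0.49 at 4-wk, and without those arrays it was -0.25 at 2-d and -0.46 at 4-wk. The larger spread between mice, with an SD of 0.68 in L-P/C-HF 2-d mice against 0.28 for Ero1b on 1434714_at in the same mice, went with a wider interval.

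Creld2 is an ER protein induced by ER stress, and Manf is a small protein that is held in the ER and released on stress. Both varied widely between mice. Creld2 ranged from 7.98 to 9.94 with a median of 8.77 in H-P/C-HF 2-d mice, against 8.25 to 11.21 with a median of 9.21 in L-P/C-HF 2-d mice. At 4-wk it ranged from 8.17 to 9.71 with a median of 8.78 in H-P/C-HF mice, against 8.25 to 10.26 with a median of 9.0 in L-P/C-HF mice. The averaged change was -0.39 (interval -0.72 to -0.05, unadjusted p = 0.0239), and without the 3 arrays the changes were -0.31 in the average, -0.25 at 2-d and -0.37 at 4-wk.

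Manf ranged from 8.87 to 10.02 with a median of 9.38 in H-P/C-HF 2-d mice, against 9.13 to 11.76 with a median of 9.62 in L-P/C-HF 2-d mice. At 4-wk it ranged from 9.09 to 9.86 with a median of 9.53 in H-P/C-HF mice, against 8.66 to 10.34 with a median of 9.59 in L-P/C-HF mice. The averaged change was -0.26 (interval -0.51 to -0.00, unadjusted p = 0.0469), or -0.21 without the 3 arrays. At 2-d it was -0.33 with all used arrays and -0.14 without A01, A09 and A24. Neither Creld2 nor Manf passed.

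**Figure D3:**
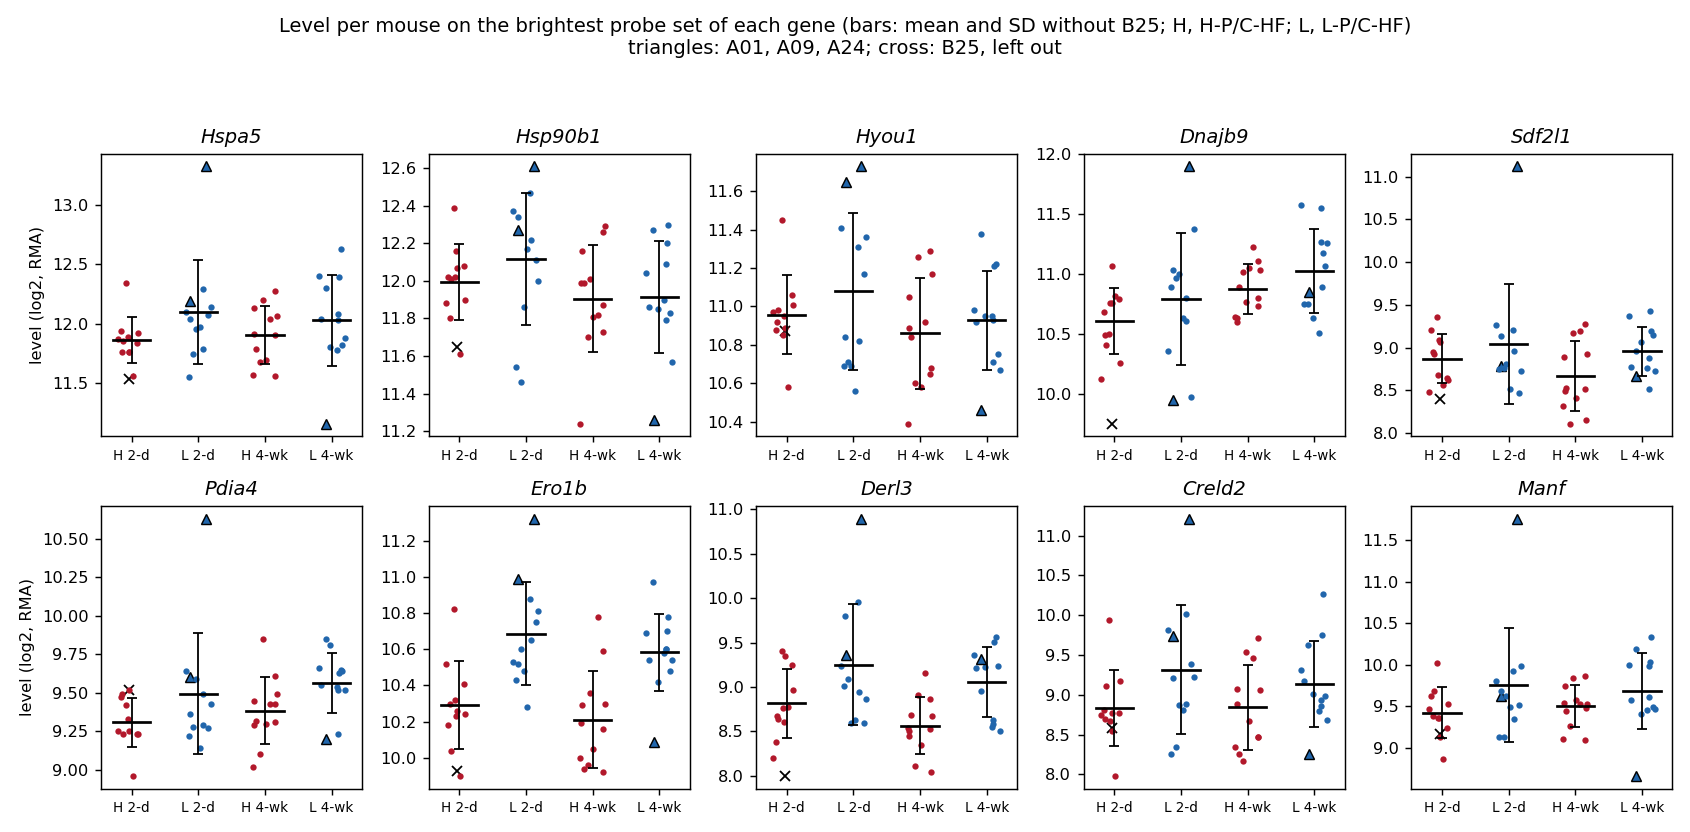
Level of each gene in each mouse (log2, RMA) on its brightest probe set, for H-P/C-HF (H, red) and L-P/C-HF (L, blue) at 2-d and 4-wk, with bars for the mean and SD of the arrays used, triangles for A01, A09 and A24, and a cross for B25. A09 is the top point of the L-P/C-HF 2-d group in all 10 panels, and the groups overlap in every panel.

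In the order of the 4 group means, both H-P/C-HF groups stood below both L-P/C-HF groups for 7 of the 10 genes on the brightest probe set and for 10 of the 18 probe sets. How often this order occurred over all probe sets was not counted, and the members moved together, so these counts are a description only. Hspa5 shows the pattern, with 11.86 ± 0.19 in H-P/C-HF 2-d, 11.90 ± 0.24 in H-P/C-HF 4-wk, 12.03 ± 0.39 in L-P/C-HF 4-wk and 12.10 ± 0.44 in L-P/C-HF 2-d, and neighbours in that order differed by less than their SD. For Ero1b on 1434714_at the gap between the higher H-P/C-HF group (10.29 ± 0.24 at 2-d) and the lower L-P/C-HF group (10.58 ± 0.21 at 4-wk) was larger than either SD. No member probe set passed for the difference between the diet effects at the 2 durations, and none of all probe sets did in limma (0%). At an unadjusted p under 0.05, 0 of the 18 and 733 of all probe sets differed. The sign of this difference rested on few arrays, since 6 of the 18 were negative with a median of 0.04, but 16 without A01, A09 and A24, with a median of -0.10.

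Few of these genes passed for time on the diet. Within H-P/C-HF mice 2 of the 18 probe sets were higher at 4-wk than at 2-d, where 4.71% of all probe sets were. Within L-P/C-HF mice 1 was higher, where 5.39% of all probe sets were. Probe set 1438040_a_at of Hsp90b1 averaged 11.88 ± 0.28 at 4-wk and 11.30 ± 0.34 at 2-d in H-P/C-HF mice, a rise of 0.58 (adjusted p = 0.00827 in limma), and 12.05 ± 0.28 at 4-wk and 11.51 ± 0.54 at 2-d in L-P/C-HF mice, a rise of 0.54 (adjusted p = 0.0122). The brightest Hsp90b1 probe set gave -0.09 on H-P/C-HF and -0.20 on L-P/C-HF and did not pass, so the probe sets of this gene disagreed.

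The dim Hyou1 probe set 1451913_a_at averaged 6.44 ± 0.33 at 4-wk and 6.06 ± 0.18 at 2-d in H-P/C-HF mice, a rise of 0.38 (adjusted p = 0.0426), where the brightest Hyou1 probe set gave -0.10. In L-P/C-HF mice it averaged 6.48 ± 0.27 at 4-wk and 6.22 ± 0.38 at 2-d, a difference of 0.27 that did not pass (adjusted p = 0.194) but was 0.36 and passed without A01, A09 and A24 (adjusted p = 0.0203). A measure of RNA quality, the gap between 3′ and 5′ signals of the Gapdh and beta-actin controls, moved with time. Its median was 0.245 at 4-wk and 0.45 at 2-d in H-P/C-HF mice, and 0.243 at 4-wk and 0.44 at 2-d in L-P/C-HF mice. With it as a covariate none of these probe sets passed (Hsp90b1 1438040_a_at: 0.11 in H-P/C-HF mice, adjusted p = 0.869). Kupffer cell and macrophage markers also moved with time, and all 14 had a positive change on both diets. On H-P/C-HF 10 of the 14 passed as higher at 4-wk (median difference 0.84), where 4.71% of all probe sets did. On L-P/C-HF 12 of the 14 passed (median 1.02), where 5.39% of all probe sets did. The part of these cells in the levels above was not tested. Age and day of death cannot be told apart from time on the diet. RNA quality can be told apart from it only in part, since its ranges overlapped between durations. They were 0.335 to 0.745 at 2-d and 0.135 to 0.51 at 4-wk in H-P/C-HF mice. In L-P/C-HF mice they were 0.29 to 0.9 at 2-d and 0.165 to 0.39 at 4-wk.

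Across mice most of the genes varied together on their brightest probe sets. With group means subtracted, the 36 pairs among the 9 genes other than Dnajb9 correlated at r between 0.43 and 0.94 over 47 arrays, with a median of 0.72. Hspa5 and Manf made the closest pair (r = 0.94), and Hspa5 with Creld2 had 0.90. Without A01, A09 and A24 the range over these pairs was 0.29 to 0.90 and the median 0.58, and Hspa5 with Manf stayed at 0.90. Other probe sets of a gene did not all follow its brightest one. While 1427464_s_at of Hspa5 did (r = 0.96), 1438040_a_at of Hsp90b1 had 0.24, or 0.14 without those arrays. For Hyou1, 1423290_at had 0.13 (0.05 without them) and 1451913_a_at had 0.31 (0.20). The co-variation therefore holds for the brightest probe sets and was not shown for every probe set of these genes.

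Dnajb9 stood apart. Its 9 correlations lay between -0.08 and 0.41, with a median of 0.27, and between -0.23 and 0.10 without the 3 arrays, with a median of -0.04. Dnajb9 had a single probe set, and the part of RNA quality in these correlations was not tested. All pairs share the mice, the arrays and their normalization, so these values describe this set of livers only. Sdf2l1 and Pdia4, in whose windows no exact ERSE was found, correlated at 0.83 with each other and at 0.72 and 0.71 with Hspa5, and without the 3 arrays at 0.68, 0.55 and 0.43.

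**Figure D4:**
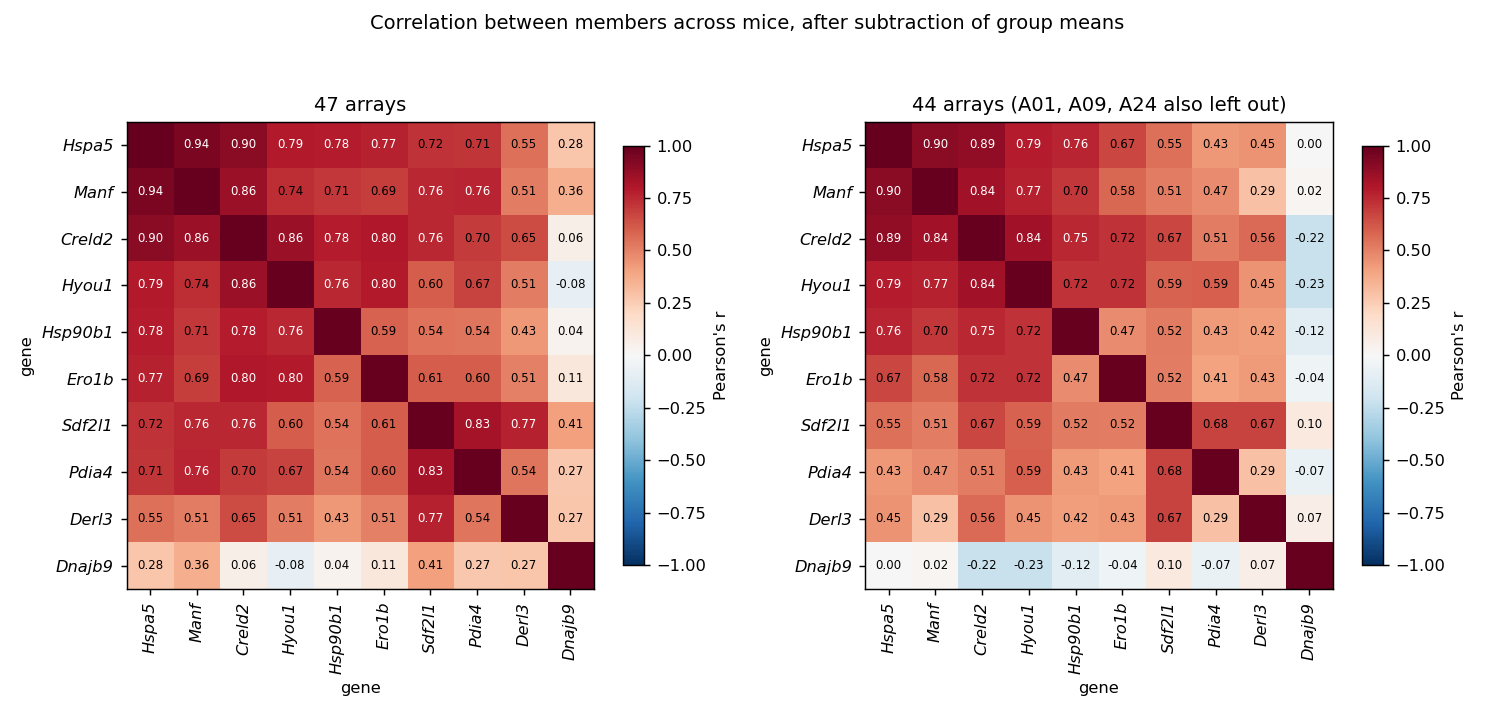
Pearson correlation between the brightest probe sets of the 10 genes across mice after subtraction of group means. The left panel has 47 arrays, and in the right panel A01, A09 and A24 are also left out (44 arrays). Every pair without Dnajb9 is positive in both panels, while the Dnajb9 row is close to 0 or weakly positive on the left and close to 0 or negative on the right.

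The 5 genes outside the 10 whose levels followed the mean of the standardised members most closely, among 18183 genes compared, were all of the secretory pathway. Dnajb11 (ERdj3), a BiP co-chaperone, had r = 0.96, Slc35b1, which carries ATP into the ER, 0.93, and Uggt1, the sensor of misfolded glycoproteins, 0.93. Rpn1, a subunit of the oligosaccharyltransferase, had 0.92 and Surf4, a cargo receptor for ER export, 0.91. The same 5 genes led without A01, A09 and A24, at r between 0.83 and 0.92. Their averaged changes ran from -0.12 for Surf4 to -0.19 for Dnajb11, and none passed.

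Other ER genes had small negative estimates as well. Of 101 genes in 6 lists 97 were measured, and 87 of these had a negative averaged change, with a median of -0.08, where 54.1% of all genes were negative with a median of -0.01. None of the 97 passed. At an unadjusted p under 0.05, 24 were lower and 1 was higher, and by duration 14 were lower and 1 higher at 2-d, and 3 lower and 0 higher at 4-wk. The share of all probe sets that were lower at this threshold was 2.57% in the average, 1.62% at 2-d and 1.8% at 4-wk. These shares count every probe set, dim ones included, whereas a list gene stands by its brightest probe set alone. Shares and list counts are therefore not like for like, here and for the lists below.

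In the list of ER translocation and signal peptide processing 24 of 25 genes were negative, with a median of -0.13, and 12 were lower at an unadjusted p under 0.05, against 2.57% of all probe sets. Its leading gene was Ssr3, a subunit of the complex beside the translocon, which averaged 11.72 ± 0.12 in H-P/C-HF 2-d mice and 11.92 ± 0.24 in L-P/C-HF 2-d mice, and 11.72 ± 0.17 in H-P/C-HF 4-wk mice and 11.89 ± 0.13 in L-P/C-HF 4-wk mice (change -0.18, adjusted p = 0.328). Ssr1 of the same complex had -0.19 (adjusted p = 0.734). Among the oxidoreductases 13 of 14 were negative with a median of -0.10, led by Txndc5 with -0.22 (unadjusted p = 0.000148, adjusted p = 0.154), which had 10.84 ± 0.15 in H-P/C-HF 2-d mice and 11.04 ± 0.22 in L-P/C-HF 2-d mice, and 10.88 ± 0.20 in H-P/C-HF 4-wk mice and 11.11 ± 0.14 in L-P/C-HF 4-wk mice.

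The lists of degradation, lectin chaperones and other co-chaperones had 15 of 18, 10 of 10 and 11 of 13 negative genes, with medians of -0.07, -0.08 and -0.06. Edem2, which marks glycoproteins for degradation, had -0.18 (adjusted p = 0.769), Dnajc3, a BiP co-chaperone that restrains PERK, -0.20 (adjusted p = 0.828), and Uggt1 -0.18 (adjusted p = 0.957). Among the sensors and transcription factors of the unfolded protein response 14 of 17 were negative with a median of -0.05. The exception with the largest estimate was Trib3, a pseudokinase induced downstream of ATF4, with 7.78 ± 0.25 in H-P/C-HF 2-d mice and 7.46 ± 0.22 in L-P/C-HF 2-d mice, a difference of 0.32 (unadjusted p = 0.00211, adjusted p = 0.999), and 0.03 at 4-wk.

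**Figure D5:**
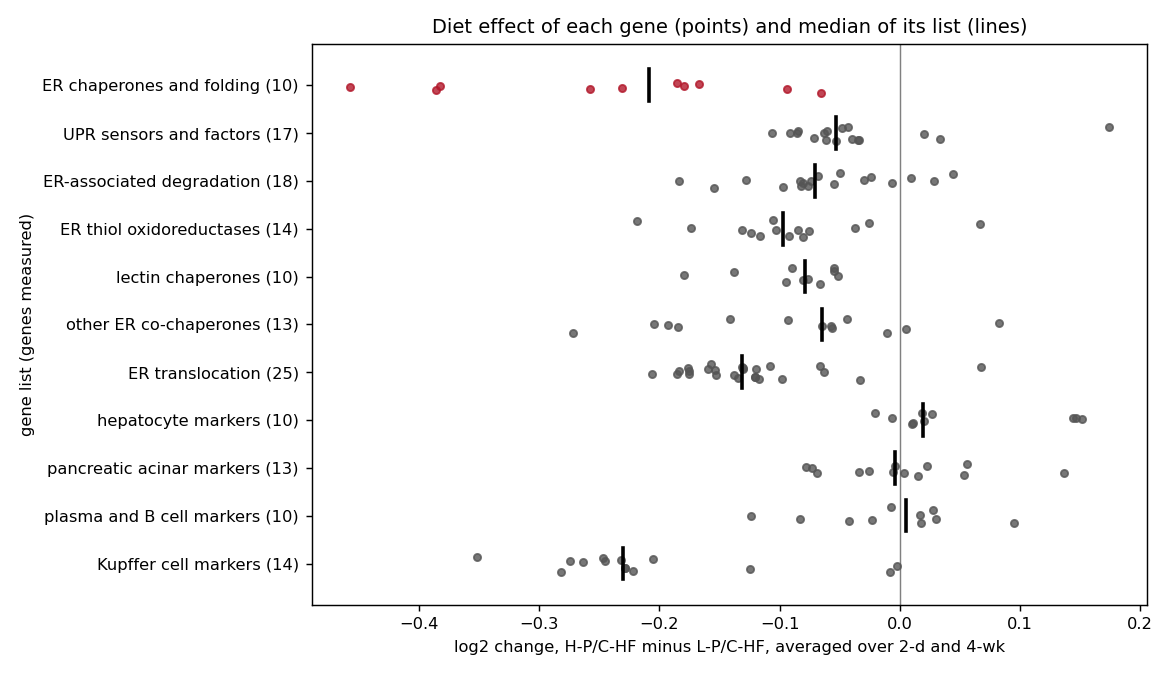
Averaged diet effect (L-P/C-HF subtracted from H-P/C-HF, log2) of each gene on its brightest probe set, by list, with a line at the median of the list and the number of genes measured. The 10 ER chaperones and folding factors (red) all lie below 0 with a median of -0.21, and the medians of the 6 other ER lists lie between -0.13 and -0.05.

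Levels were measured in whole liver, where fewer cells of a type and less RNA per cell cannot be told apart. Pancreatic acinar cells and plasma cells are rich in ER, and the estimates for their markers lay on both sides of 0. Of 13 acinar markers measured, 7 had a negative averaged change, with a median of -0.00, and 6 lay below the level of the median probe set, while the mean of the list ran from 6.89 to 7.24 in H-P/C-HF 4-wk mice and 6.97 to 7.27 in L-P/C-HF 4-wk mice, and from 7.01 to 7.29 in H-P/C-HF 2-d mice and 6.92 to 7.25 in L-P/C-HF 2-d mice. Of 10 plasma cell and B cell markers 5 were negative, with a median of 0.00, and 6 lay below the median probe set. The mean of that list ran from 6.45 to 6.71 in H-P/C-HF 2-d mice and 6.42 to 6.73 in L-P/C-HF 2-d mice, and from 6.48 to 6.87 in H-P/C-HF 4-wk mice and 6.45 to 7.75 in L-P/C-HF 4-wk mice.

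Kupffer cell and macrophage markers did have lower estimates in H-P/C-HF mice. Of 14 such markers 14 had a negative averaged change, with a median of -0.23, and 7 were lower at an unadjusted p under 0.05, against 2.57% of all probe sets, though none passed. Without A01, A09 and A24, 12 of the 14 were negative. The mean of the list ran from 8.23 to 9.04 in H-P/C-HF 2-d mice and 8.18 to 9.34 in L-P/C-HF 2-d mice, and from 8.32 to 9.84 in H-P/C-HF 4-wk mice and 8.94 to 10.31 in L-P/C-HF 4-wk mice. Marco, a scavenger receptor of these cells, had -0.35 (adjusted p = 0.936) and Csf1r, the receptor for their growth factor, -0.23 (adjusted p = 0.894). The part of these cells in the levels of the ER genes was not tested.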

How the data were processed

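The authors deposited log2 values from RMA (Robust Multichip Average), which corrects the background, normalizes the arrays to each other and summarises the probes of a set. The log base is not stated and was taken from how far the values reach. RMA draws arrays to a common distribution, so a shift of all genes would be hidden. Of 45101 probe sets, 64 controls were left out. A probe set was assigned to a gene where it carried 1 symbol (34945), while 932 carried several and 9160 none.

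A model with the 4 group means was fitted on 47 arrays with limma 3.58.1 under R 4.3.3, using lmFit and then eBayes with a trend, with B25 left out as in the methods of the study. Tests were two-sided, with Benjamini-Hochberg adjustment over all 45037 probe sets, and a probe set passed at an adjusted p under 0.05. The replicates are separate mice, which were housed individually according to the methods of the study. RNA extraction was repeated there for samples of low RNA quality, and no label gives an extraction batch.

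The members and lists were chosen with earlier results of these data known. Named were all members, the up to 4 genes with the smallest p in the averaged diet effect of each other list, and the 5 genes that correlated best with the members. The alternatives were B25 included; A01, A09 and A24 left out; array weights over 48 arrays; centring on array medians; cyclic loess; brighter probe sets alone; separate fits; no trend; an RNA quality covariate; the replicate number as a block; one-way ANOVA; and averaging over the probe sets of each gene. Leaving out each array in turn, for the averaged diet effect, was added after the data were seen. On simulated data for the averaged diet effect over 45037 probe sets, 70% of shifts of 0.25 and 98% of shifts of 0.4 were recovered, and 21 of 389 calls were false. The simulated noise was independent between probe sets, and 100 probe sets were shifted by each of the amounts 0.25, 0.4, 0.5 and 1. With 389 calls the adjusted threshold was looser there than in the real data, where 23 probe sets passed. These shares therefore do not carry over to the real data.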

Additional observations from a re-analysis of the deposited data

How the results depend on the processing

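For the diet effect averaged over durations 2 member probe sets, both of Ero1b, passed under every alternative run and in all 47 fits that left out 1 array (2 to 2), and at 2-d and for the difference of diet effects 0 passed under every alternative. At 4-wk, 2 passed with array weights, and 0 otherwise. For time on the diet in H-P/C-HF mice the count of 2 became 1 with arrays centred on their median, 1 with brighter probe sets alone, 1 with one-way ANOVA and 0 with the RNA quality covariate. In L-P/C-HF mice the count of 1 became 2 without A01, A09 and A24, 3 with array weights and 0 with the RNA quality covariate. The cause was not tested.

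Among the single values recomputed under the alternatives, which were the diet effects on the brightest probe sets and the second Ero1b probe set and the changes of called probe sets over time, the sign turned in 5 cases. Without A01, A09 and A24 the change at 2-d was 0.0119 for Sdf2l1 and 0.00218 for Hyou1, and with arrays centred on their median that of Hsp90b1 at 4-wk was 0.0075. With the RNA quality covariate the change over time in L-P/C-HF mice was -0.0043 for Hsp90b1 on 1438040_a_at and -0.0275 for Hyou1 on 1451913_a_at. Over all 18 probe sets, leaving out these 3 arrays turned the sign of 3 at 2-d, 0 at 4-wk, 1 in the average, 10 for the difference of diet effects, 0 for time in H-P/C-HF mice and 9 for time in L-P/C-HF mice. Of 420 values for single genes under the alternatives, 407 kept their direction and their side of the threshold. When the mean of its 3 probe sets was used, Ero1b had an averaged change of -0.26.

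Over all probe sets, the count that passed was 6 at 2-d, with a range of 1 (replicate block) to 23 (cyclic loess) under the alternatives. It was 0 at 4-wk, with up to 10 (array weights), and 23 in the average, with 15 (one-way ANOVA) to 90 (array weights). For time on the diet it was 3012 in H-P/C-HF mice, with 622 (RNA quality covariate) to 5545 (array weights), and 3096 in L-P/C-HF mice, with 464 (RNA quality covariate) to 4131 (cyclic loess).

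No label says that a replicate number marks a shared batch, and not every pair of same-numbered arrays deviated together. The correlation was above 0.1 in 7 of 11 pairs at 2-d (-0.12 to 0.55) and in 4 of 12 at 4-wk (-0.25 to 0.28), and 4 of 46 arrays correlated best with an array of their own number. With the number as a replicate block the member counts were 0 at 2-d, 0 at 4-wk, 2 in the average, 2 over time on H-P/C-HF and 1 on L-P/C-HF, as without it. The number of arrays limits the precision.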
